A study of Mus musculus with 9 samples.

Results

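Of the 5281 circRNAs quantified in the E14.5 mouse cortex, 375 spanned at least 30000 bases of the genome while only 250 to 1992 bases of their sequence were counted. They were selected from the deposited table by the distance between start and end and by the counted length alone, with a minimum of 30000 and a window from 250 to under 2000 bases, without use of any read count. At any counted length 449 circRNAs had a span this long. The 375 circRNAs (hereafter long-span circRNAs) came from 278 parental genes, and 372 of them lay in protein-coding genes. The other 3 came from the long non-coding RNA genes Rmst and 2610307P16Rik.

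A circRNA forms when the spliceosome joins the 5′ splice site at the end of an exon to the 3′ splice site at the start of the same or an upstream exon, a reaction known as backsplicing. The closed circle has no free ends, so it resists exoribonucleases such as RNase R that degrade linear RNA, and it tends to be long-lived. Exons between both ends are usually kept and the introns between them removed, and neurons are known to be rich in such molecules. In a circRNA that spans a long stretch of genome and has a short sequence, introns therefore take up most of the span. Such an arrangement is typical of the long genes that act in neurons and in their adhesion and signalling.

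From the lateral cortex of C57BL/6 embryos that carried both the Btg2-RFP and the Tubb3-GFP reporter, 3 cell types were sorted, with 3 libraries of each. These were proliferative progenitors, termed PP, progenitors in differentiative division, termed DP, and neurons that had just been born, termed N. PP were negative for both reporters, DP were RFP-positive and GFP-negative, and N were GFP-positive. Btg2 marks progenitors that are about to generate neurons and Tubb3 encodes a neuronal tubulin, so the gates separate steps of the neurogenic lineage and the PP gate takes every cell without reporter signal. Total RNA of every group was treated with RNase R, and the meninges and ganglionic eminences had been removed before dissociation.

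The sequence that distinguishes a circRNA from its linear counterpart is the backsplice junction, where the end of a downstream exon meets the start of an upstream exon. Junctions were rebuilt here from the NCBIM37 (mm9) genome for a selection of long-span circRNAs that shows each direction of change. Each line gives 30 bases of the last exon followed by 30 bases of the first exon, 5′ to 3′, with the 4 bases on either side of the junction in capitals. The first 6 belong to circRNAs that were higher in N than in PP.
Myt1l, CiCo_mm9_circ_001321, exons 12 to 21, chr12:30521215-30580179, plus strand: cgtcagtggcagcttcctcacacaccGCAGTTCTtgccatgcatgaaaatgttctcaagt
Tiam2, CiCo_mm9_circ_002571, exons 7 to 15, chr17:3437228-3477278, plus strand: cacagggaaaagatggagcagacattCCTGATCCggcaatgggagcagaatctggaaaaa
Robo2, CiCo_mm9_circ_002430, exons 8 to 18, chr16:73948448-73985957, minus strand: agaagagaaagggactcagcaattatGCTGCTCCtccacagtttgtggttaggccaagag
Unc5d, CiCo_mm9_circ_006193, exons 2 to 3, chr8:29955206-29986111, minus strand: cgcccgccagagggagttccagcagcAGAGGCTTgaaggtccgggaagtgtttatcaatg
Sox5, CiCo_mm9_circ_005369, exons 2 to 3, chr6:144064964-144103743, minus strand: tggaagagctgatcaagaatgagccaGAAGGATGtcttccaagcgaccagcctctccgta
Runx1t1, CiCo_mm9_circ_004429, exons 2 to 8, chr4:13762780-13793179, plus strand: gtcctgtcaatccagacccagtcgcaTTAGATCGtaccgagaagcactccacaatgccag
The next, of Kif26b, was highest in DP.
Kif26b, CiCo_mm9_circ_000203, exons 3 to 4, chr1:180608957-180646100, plus strand: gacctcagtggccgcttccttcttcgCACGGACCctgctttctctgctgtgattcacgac
The last 6 belong to circRNAs that were lower in N than in PP.
Etl4, CiCo_mm9_circ_003631, exons 4 to 6, chr2:20583525-20635075, plus strand: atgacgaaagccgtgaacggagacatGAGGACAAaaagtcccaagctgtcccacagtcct
Prdm16, CiCo_mm9_circ_004513, exons 2 to 3, chr4:153850748-153903040, minus strand: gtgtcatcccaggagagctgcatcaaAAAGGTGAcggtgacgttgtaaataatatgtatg
Qk, CiCo_mm9_circ_002493, exons 2 to 4, chr17:10431758-10475846, minus strand: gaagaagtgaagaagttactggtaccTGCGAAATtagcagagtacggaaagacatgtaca
Dock1, CiCo_mm9_circ_005783, exons 17 to 23, chr7:141963150-141996333, plus strand: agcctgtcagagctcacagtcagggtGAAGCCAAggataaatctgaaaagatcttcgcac
Mms22l, CiCo_mm9_circ_004543, exons 6 to 14, chr4:24432492-24506050, plus strand: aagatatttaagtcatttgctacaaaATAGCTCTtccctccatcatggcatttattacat
Diap3, CiCo_mm9_circ_001985, exons 19 to 25, chr14:87210143-87309930, minus strand: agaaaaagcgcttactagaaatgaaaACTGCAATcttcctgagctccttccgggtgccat

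The splice-site letters beside the circles were read from the genome. Both ends coincided with annotated exon ends in 374 of 375 long-span circRNAs, so these letters were largely fixed in advance and are no separate finding. The intron upstream of the first exon ended in AG and the intron downstream of the last exon began with GT in 372 of 372 long-span circRNAs with introns on both sides, and in 4698 of 4701 other circRNAs (99.9%). Inverted repeats in the flanking introns, which can pair and bring both ends of a circle together, were searched as exact reverse-complement matches between the 1000 bases before and the 1000 bases after the circle. A match of at least 20 bases was present in 6 of 355 long-span circRNAs (1.7%) and in 187 of 3908 others (4.8%), and the median longest match was 10 and 11 bases. The 6 came from Kalrn, AW554918, Tbc1d12, Mms22l, Zfp827 and Phf16, named here because they were the only ones found. A repeat that lies farther away or that is not exact would not have been found in this search.

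The primer list of the study holds divergent primers for 8 long-span circRNAs, so their position on the rebuilt circles could be checked. For 7 of the 8, of Kif26b, Ust, Rmst, Ehbp1, Lsamp, Nfatc2 and Tusc3, each primer matched its circle once and the product crossed the junction, with lengths of 145 to 156 bases. The pair of Rmst also gave a product, of 363 bases, on another circle of the gene. The primers of Kif26b are shown as an example, since its reverse primer lies across the junction itself, with 12 bases on the end of the last exon and 6 on the start of the first.
Kif26b forward: CGCGAGGGACTGACAGAGT
Kif26b reverse: AGGGTCCGTGCGAAGAAG
The pair listed for the Dgki circRNA of exons 19 to 27 (CiCo_mm9_circ_005430) was the exception.
Dgki forward: GGCTGTCTGACTGGTGGAAC
Dgki reverse: CTGTGGACCCAGTGGTGAC
The Dgki forward primer matched 3 circles of the gene, including the listed one, whereas the reverse primer matched only the circle of exons 6 to 20 (CiCo_mm9_circ_005431). None of the 4 Dgki circles in the table held both sites, as rebuilt from annotated exons.

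Long-span circRNAs had spans of 30003 to 99788 bases (median 43742) and counted lengths of 250 to 1992 bases (median 727). The median of the other 4906 circRNAs was 4686 bases for span and 450 bases for counted length. Both ends coincided with annotated exon ends in 374 of 375 long-span circRNAs. For 352 of these 374 the counted length equalled the sum of the annotated exons plus 1 base per exon, so introns had not been counted for them. The counted length was below that sum in 11 and above it in 11. In Rmst, a long non-coding RNA gene active in neurogenesis, 1992 bases were counted against 961 bases of annotated exons. The cloning primers of the study list an expected size of 961 bases for this circle, beside its span. The paper detected no intron in the circRNAs that it cloned.

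A long-span circRNA held a median of 5 exons and at most 19, and 91 of them (24.3%) had only 2 or 3 exons. Among the other circRNAs 52.9% had 2 or 3 exons and the median was 3. Exons made up a median of 1.54% of the span, against 9.96% in the others, as the span rule partly fixes. The longest intron inside the circle had a median of 23790 bases, and it was longer than all the rest of the span in 204 long-span circRNAs (54.5%), close to the 57.7% of the others. In circles of 2 exons, such as those of Sox5, Unc5d, Kif26b, Gli3, Prdm16 and Foxp1, a single intron made up nearly all of the span, with 97315 of 97581 bases in Foxp1.

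**Figure D1:**
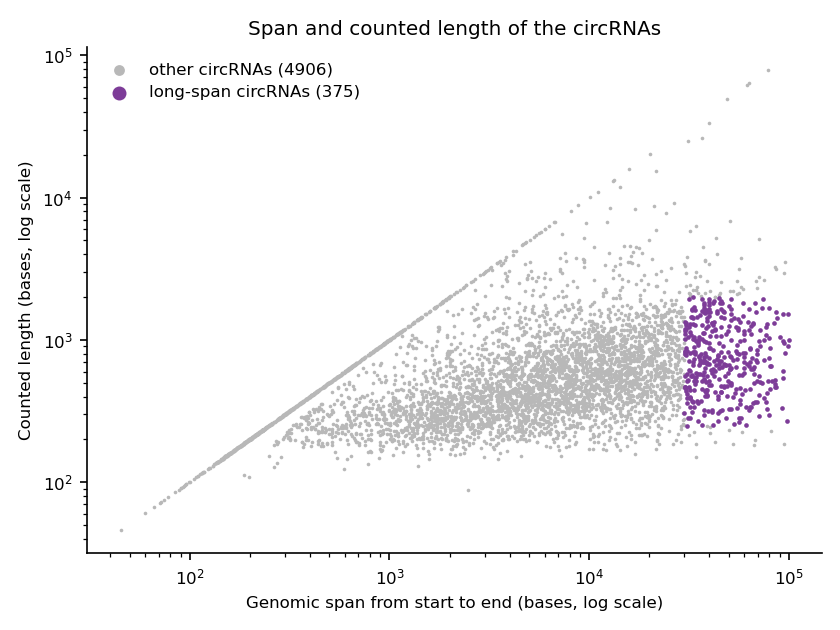
Genomic span from start to end (x axis, bases, log scale) against counted length (y axis, bases, log scale) of every circRNA in the table, with the 375 long-span circRNAs in purple and the 4906 others in grey. The purple points start at 30003 bases of span and reach 99788, at counted lengths of 250 to 1992.

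The introns outside the circle were long as well. The intron upstream of the first exon had a median of 17066 bases and the downstream intron of 17900 bases, against 6620 and 4918 bases in the others. The circle began at the second exon of its transcript in 152 long-span circRNAs (40.6%), against 29.0% of the others, and the first intron of a gene is often its longest. The parental genes had a median length of 202761 bases against 82059, and the circle covered a median of 22.9% of its gene. Of the 277 circles that lay within the coding sequence, 114 (41.2%) had a summed exon length divisible by 3, close to the 38.7% of the others.

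**Figure D2:**
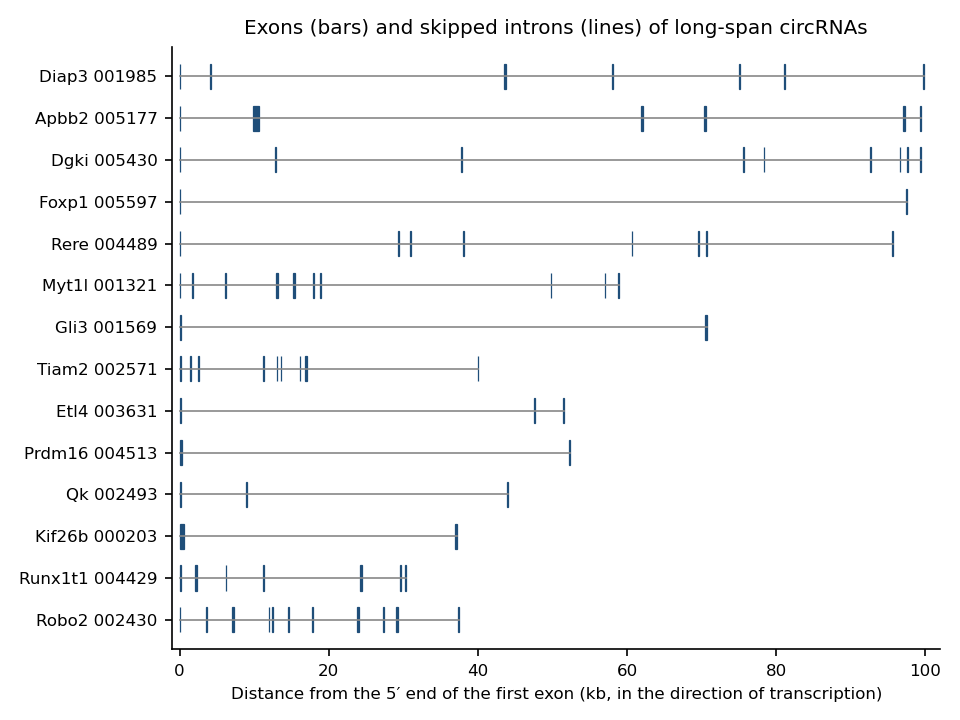
Exons (bars) and the introns between them (lines) of selected long-span circRNAs, plotted in the direction of transcription against distance from the 5′ end of the first exon in kb. Circles of 2 exons, such as those of Foxp1, Gli3, Prdm16 and Kif26b, show a bar at either end, and the circle of Diap3 spreads 7 exons over 99788 bases.

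Most parental genes gave a single long-span circRNA (209 genes). Of the others, 49 gave 2, 14 gave 3, and 5 gave 4, while Rere gave 6. Circles of the same gene often nest or overlap, and 303 of the 375 shared exon bases with another circRNA in the table, 109 of them over their whole exon sequence. Of these 109, 104 had a count in every library, so reads were counted for more than one circRNA. The counts hold every read on the exons, not only those across the backsplice junction. Whether linear RNA that survived RNase R, or another circle of the same gene, added to a value was not tested.

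Total counts per library were 2962787 to 8015311, of which 83572 to 287983 lay outside 27 very abundant entries that were kept in the fits. A count of 3 was worth 0.340 to 1.39 CPM (read counts scaled to library size by the TMM method). PP 3 and N 1 stood apart from their replicates, with a chi-square per degree of freedom of 7.10 to 11.1 against 1.25 to 2.29 for the other pairs of replicates, and they were the shallowest libraries of all outside the very abundant entries. Counts of changed circRNAs per comparison and per gene list are therefore given with and without both. Genes were listed as cell type markers with earlier results of these data known. Many of them, such as Pax6, Sox2, Eomes, Dcx and Tbr1, had no circRNA. The circRNAs of 4 of 12 PP genes had a summed level of 311 to 424 CPM in PP and 62.9 to 81.8 in N. Those of 2 of 8 DP genes had 57.0 to 63.7 CPM in DP and at most 38.1 elsewhere. Those of 6 of 12 N genes had 353 to 429 CPM in N and 9.70 to 26.5 in PP. Some of these marker circRNAs are themselves long-span circRNAs, of Gli3, Myt1l, Dcc and Runx1t1. Of 8 interneuron genes only Erbb4 had circRNAs, summing to 3.43 to 6.75 CPM in N, 0 to 2.32 in PP and 0 to 0.248 in DP, and none of 13 endothelial, blood and microglial genes had any.

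Most long-span circRNAs were detected throughout. A count was present in every library for 321 of them (85.6%), against 82% of the others, and in all 3 cell types for 370. Their median level was 6.05 RPKM (CPM per kilobase of counted length) against 6.83 in the others. The share of all counts outside the very abundant entries that fell on long-span circRNAs was 6.86% ± 0.644 in PP, 6.95% ± 0.222 in DP and 8.37% ± 0.565 in N (SD, n = 3). It was 7.60% in PP 3, the library that stands apart, and at most 6.54% in the other PP libraries, whereas N ranged from 7.74% to 8.83% and so lay above every PP and DP library.

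Each step of the lineage was then compared to ask how long-span circRNAs change as progenitors become neurons. The test was run over all 4406 circRNAs with sufficient counts, 332 of them long-span, and the 43 that were not tested had 19 to 81 counts in total. An adjusted p under 0.05 in the edgeR quasi-likelihood test was called a change. In at least 1 of 3 comparisons 145 long-span circRNAs from 109 genes changed (43.7%), against 30% of all circRNAs tested. Because sorted cells were sequenced in bulk, fewer cells with a circRNA and less of it in each cell cannot be told apart.

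From PP to DP, 11 long-span circRNAs of 10 genes rose (3.31%, against 1.43% of all tested) and none fell (against 0.386% of all tested). The libraries of PP and DP did not overlap for any of the 11, while 10.9% of all circRNAs tested had every DP library above every PP library and 8.4% had every one below. At an unadjusted p under 0.05, 19 were lower in DP, and DESeq2 also called 13 higher and 0 lower. By FC alone, at least 1.5 or at most 0.67 and no test, 48 were up (against 12% of all) and 67 down (against 15.9%). Without PP 3 and N 1, 51 rose from PP to DP (14.5%, against 9.21% of all tested in that fit) and 19 fell (5.4%, against 5.15%).

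From DP to N, 54 long-span circRNAs rose (16.3%, against 8.97% of all tested) and 32 fell (9.64%, against 9.69%). The DP and N libraries did not overlap for any of these, while 17.7% of all circRNAs tested had every N library above every DP library and 21.2% had every one below. By FC alone 106 were up (against 20.9%) and 73 down (against 23%). From PP to N, 78 rose (23.5%, against 13.6%) and 55 fell (16.6%, against 14.4%), with libraries that did not overlap in 75 and 47 of them. Over all circRNAs tested 17.4% had every N library above every PP library and 19.1% had every one below. The size of the change reached 4-fold in 33 of the 78 and in 33 of the 55, which was not counted over all circRNAs. Without PP 3 and N 1, 104 rose (29.5%, against 16.9% of all tested in that fit) and 58 fell (16.5%, against 17.6%) from DP to N. From PP to N 118 rose (33.5%, against 21.7%) and 71 fell (20.2%, against 20.7%) in the same fit. The balance depended on the scaling. With total counts in place of TMM, 14 rose (4.22%, against 1.88% of all tested) and 25 fell (7.53%, against 7.24%) from DP to N. In the same fit 31 rose (9.34%, against 4.77%) and 38 fell (11.4%, against 9.96%) from PP to N. The median log2 FC of all circRNAs was -0.37 in both comparisons of that fit. With the very abundant entries left out and TMM kept, 61 rose (17.8%, against 9.8%) and 35 fell (10.2%, against 10.2%) from DP to N. From PP to N 85 rose (24.9%, against 14.3%) and 60 fell (17.5%, against 14.9%) without those entries.

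By the combination of calls, the largest groups were 41 circRNAs that rose from DP to N and from PP to N, 29 that fell in both, 28 that rose only from PP to N and 26 that fell only from PP to N. Only 5 rose in all 3 comparisons. Another 4 rose from PP to DP and from PP to N, 1 rose only from PP to DP, and 1 rose from PP to DP and fell from DP to N. A call was absent in 187. These combinations were counted for long-span circRNAs only, so no share over all circRNAs stands beside them.

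Of the 11 that rose from PP to DP, 6 came from listed genes of axon guidance and adhesion. The 11 belonged to Dcc, a netrin receptor, Unc5d (2 circRNAs), of the netrin receptor family, Robo2, a receptor for Slit proteins, Plxna2, a semaphorin co-receptor, Tiam2, an activator of the GTPase Rac, Myt1l, a zinc-finger transcription factor of neurons, Nfatc2, a calcium-dependent transcription factor, the kinesin gene Kif26b, Fam190a and Clvs1. Plxna2, the second Unc5d circRNA and Clvs1 lie outside the rule for naming and are named with their values known.

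Myt1l had 0, 0 and 0.93 CPM in PP, 2.83, 4.56 and 4.6 CPM in DP and 23.9, 27.2 and 24 CPM in N. It was absent from PP 1 and PP 2, and every library of DP lay above PP and below N. The log2 FC was 4.39 ± 0.74 (SE, adjusted p = 0.00547) from PP to DP and 2.65 ± 0.40 (SE, adjusted p = 0.000283) from DP to N. Without PP 2 the step from PP to DP was no longer called. Tiam2 had 1.04, 1.62 and 0.93 CPM in PP, 11.4, 9.25 and 10.8 CPM in DP and 74, 52.5 and 48.8 CPM in N. The 3 cell types formed separate steps, with N highest in every library. The log2 FC was 3.02 ± 0.40 (SE, adjusted p = 0.000966) at the first step and 2.47 ± 0.32 (SE, adjusted p = 0.000113) at the second.

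Dcc had 1.04, 1.29 and 1.39 CPM in PP, 13.4, 8.64 and 13.8 CPM in DP and 19.9, 22.8 and 23.2 CPM in N. Most of its rise occurred from PP to DP, with a log2 FC of 3.26 ± 0.37 (SE, adjusted p = 0.000524), and all N libraries were above all DP libraries. The second step, 0.89 ± 0.28 (SE, adjusted p = 0.0408), was lost in several alternatives, the total-count scaling and the replicate block among them. Robo2 had 1.56, 1.94 and 2.32 CPM in PP, 11.8, 8.51 and 10.6 CPM in DP and 20.8, 30.7 and 25.6 CPM in N. Its cell types did not overlap, and the log2 FC was 2.42 ± 0.35 (SE, adjusted p = 0.00181) and 1.33 ± 0.29 (SE, adjusted p = 0.00409) at the successive steps, both of which were lost with total counts. Fam190a rose in the same order, from a mean of 1.3 ± 0.555 CPM in PP to 11.5 ± 4.15 in DP and 27.4 ± 3.74 in N (SD, n = 3). Both its calls were lost with total counts, and that from DP to N also without DP 1, DP 2 or N 3.

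In other genes that rose from PP to DP no further change was called from DP to N. The 2-exon circle of Unc5d had 0.26, 0 and 0.465 CPM in PP, 2.15, 1.97 and 3.35 CPM in DP and 3.99, 2.68 and 2.78 CPM in N. PP was near 0 and the libraries of DP and N overlapped, with a log2 FC of 3.73 ± 0.71 (SE, adjusted p = 0.0123) from PP to DP and 0.26 ± 0.40 (SE, adjusted p = 0.73) from DP to N. The first of these was lost without PP 1, PP 2 or DP 3 and with total counts. Clvs1, which encodes a phosphoinositide-binding protein of clathrin-coated vesicles, was at 0 in the 3 PP libraries and had 5.21, 4.19 and 4.6 CPM in DP and 6.2, 6.4 and 4.9 CPM in N. Against the floor of 3 counts per library it was at least 5.27-fold higher in DP and at least 6.58-fold higher in N than in PP. The longer Unc5d circle, of exons 7 to 12, rose from 0.389 ± 0.343 CPM in PP to 4.19 ± 0.533 in DP.

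A single long-span circRNA was called both higher from PP to DP and lower from DP to N. Kif26b, a kinesin family gene, had 0.519, 0.647 and 0.465 CPM in PP, 7.47, 6.17 and 11.1 CPM in DP and 1.33, 0.814 and 1.31 CPM in N. The DP libraries stood above all others, and N lay slightly above PP without overlap. The log2 FC was 3.80 ± 0.45 (SE, adjusted p = 0.000524) from PP to DP and -2.90 ± 0.38 (SE, adjusted p = 0.000125) from DP to N, whereas N and PP differed by 0.90 ± 0.58 (SE, adjusted p = 0.3). Both calls were made in every alternative that could test them. Nfatc2 had 0, 0.809 and 1.39 CPM in PP, 3.4, 3.58 and 7.45 CPM in DP and 2.66, 1.28 and 2.29 CPM in N. DP was above PP in every library, with a log2 FC of 2.82 ± 0.63 (SE, adjusted p = 0.0335), but this call was lost in 9 of the alternatives, and the fall to N, -1.31 ± 0.50 (SE, adjusted p = 0.0896), was not called.

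**Figure D3:**
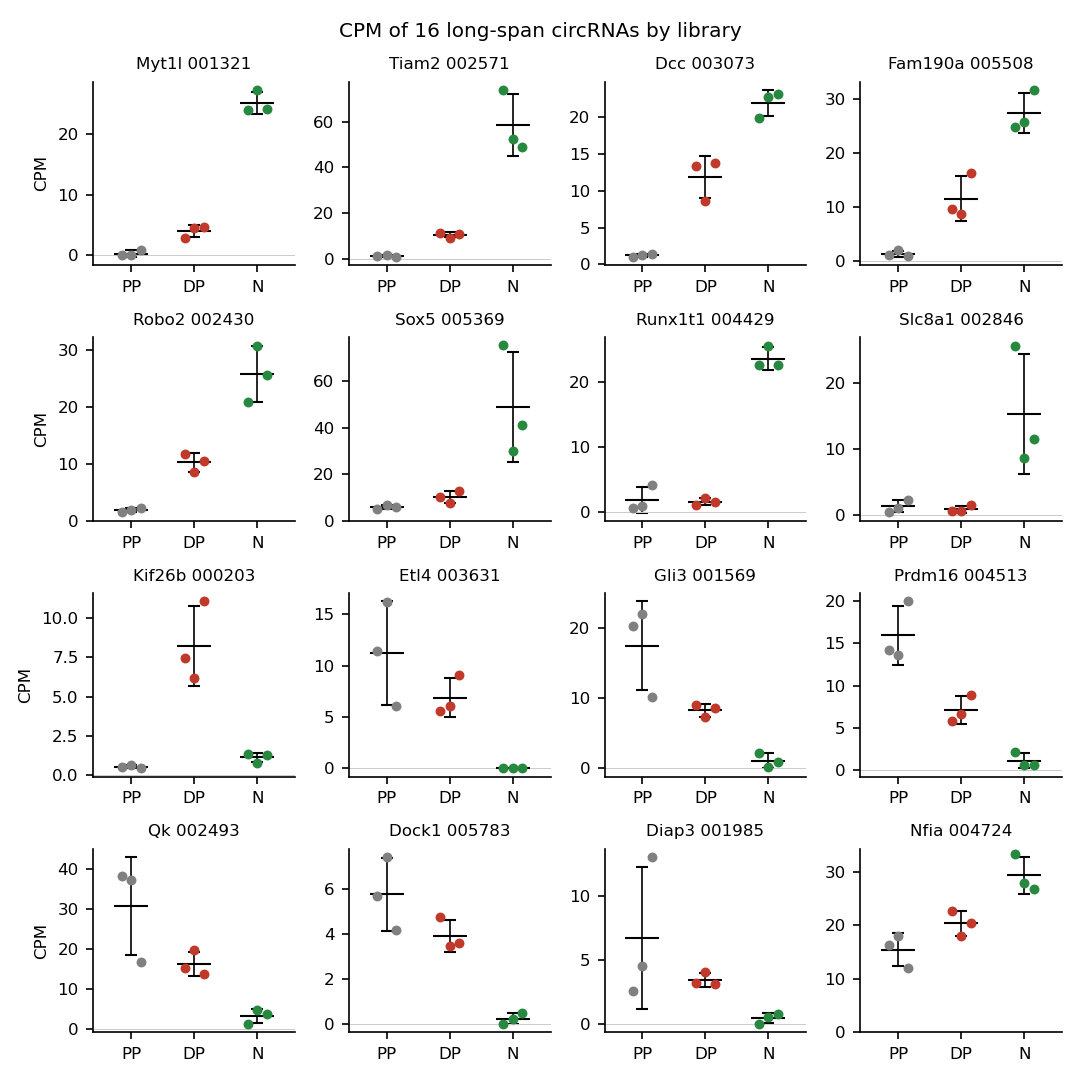
CPM (y axis, own scale per panel) of 16 long-span circRNAs in PP, DP and N, with 1 point per library and the mean ± SD (n = 3) as a bar with whiskers. Myt1l, Tiam2, Dcc, Fam190a and Robo2 climb from PP to DP to N, Kif26b peaks in DP at 6.17 to 11.1 CPM, and Etl4 is at 0 in all 3 N libraries.

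Several transcription factors were among the circRNAs that rose in N. Runx1t1, a transcriptional co-repressor, had 0.519, 0.97 and 4.18 CPM in PP, 1.13, 2.1 and 1.49 CPM in DP and 22.6, 25.6 and 22.5 CPM in N. All N libraries were far above every progenitor library, of which PP 3 was the highest. From DP to N the log2 FC was 3.90 ± 0.45 (SE, adjusted p = 6.49e-05).

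Sox5, an HMG-box factor of deep-layer neurons, gave 4 long-span circRNAs that all rose from DP to N and from PP to N. That of exons 2 and 3 had 4.93, 6.63 and 6.04 CPM in PP, 10.1, 7.77 and 12.9 CPM in DP and 75.3, 30.1 and 41.2 CPM in N. In N the library that stands apart, N 1, was highest, and N 2 and N 3 remained above every progenitor library. The log2 FC from PP to N was 3.03 ± 0.41 (SE, adjusted p = 7.32e-05), and the others had 2.82 to 2.99. For the circle of exons 2 and 3 the call from DP to N was lost with total counts. These circles of Sox5 overlap in their exons, so they are not independent measurements. The 6 circRNAs of Rere, a nuclear co-regulator, moved less, with log2 FCs of 1.10 to 1.33 from PP to N. Of them 4 passed the test. All 4 calls were lost with total counts, with only the 2 cell types compared in the fit, and without PP 2, and some in further alternatives. Asxl3, which encodes a polycomb-associated protein and is named outside the rule, gave 3 circRNAs with log2 FCs of 1.72 to 1.75, each called higher in N than in PP.

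Of the list of 142 transcription and chromatin genes, 29 gave 41 long-span circRNAs, of which 16 were higher and 5 lower in N than in PP, and 10 higher and 3 lower in N than in DP. Over all circRNAs tested 13.6% were higher and 14.4% lower in N than in PP, and 8.97% and 9.69% in N than in DP. The median of the list log2 FC from PP to N was 0.54, against -0.10 over all circRNAs tested. With total counts 7 were higher and 5 lower at a median of 0.26, and without PP 3 and N 1 20 were higher and 6 lower.

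Among genes of synapses, receptors and channels, the largest changes were in Unc79, Anks1b and Slc8a1. Anks1b, a postsynaptic scaffold, had 0, 0.162 and 0.93 CPM in PP, 0.34, 0.617 and 0.621 CPM in DP and 7.98, 7.56 and 6.7 CPM in N. N was above all progenitor libraries, where at most 5 reads were counted, and the log2 FC was 3.77 ± 0.45 (SE, adjusted p = 8.04e-05) from DP to N. Unc79, part of the NALCN sodium-leak channel complex, had 0, 0 and 1.39 CPM in PP, 0.793, 1.11 and 1.99 CPM in DP and 9.75, 8.73 and 8.82 CPM in N. No read was counted in PP 1 or PP 2, and the log2 FC from DP to N was 2.79 ± 0.49 (SE, adjusted p = 0.000988). Slc8a1, the sodium-calcium exchanger, had 0.519, 1.13 and 2.32 CPM in PP, 0.566, 0.617 and 1.49 CPM in DP and 25.7, 8.61 and 11.6 CPM in N for the circle of exons 2 to 10. N 1 was the highest and the lowest N library was still above every progenitor library, with a log2 FC of 4.01 ± 0.53 (SE, adjusted p = 0.00012) from DP to N. Of 30 such long-span circRNAs, from 21 of 122 listed genes, 22 could be tested, and 9 were higher and 2 lower in N than in PP at a median log2 FC of 0.86, against 13.6% and 14.4% of all circRNAs tested. With total counts 5 were higher and 1 lower at a median of 0.56, without a filter on low counts 15 and 3 of 30 at 1.67, and without PP 3 and N 1 16 and 4 of 26 at 1.51. The 2 that fell were those of Magi1, a scaffold of cell junctions, and a Grik2 circRNA, of a kainate receptor.

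Axon guidance and adhesion genes gave 20 long-span circRNAs, from 16 of 96 listed genes. Of 19 tested, 6 rose from PP to DP, 7 rose from DP to N and 9 rose from PP to N, where the median log2 FC was 0.99. Of all circRNAs tested 1.43%, 8.97% and 13.6% rose in these comparisons. None fell from PP to N by edgeR or DESeq2, and none was lower at an unadjusted p under 0.05, at which 11 were higher. The one with the lowest value was that of Fzd3, a Frizzled receptor, at -0.09. With total counts 7 were higher and 0 lower, and without PP 3 and N 1 12 were higher and 0 lower. Ctnna2, the neuronal alpha-catenin that links cadherins to actin, had 1.82, 2.1 and 2.32 CPM in PP, 2.27, 1.6 and 2.61 CPM in DP and 8.42, 18.1 and 13.2 CPM in N. PP and DP overlapped, and N was above both in every library, with a log2 FC of 2.65 ± 0.35 (SE, adjusted p = 0.00012) from DP to N. Trio, an exchange factor for Rac, rose from 9.11 ± 3.98 CPM in PP and 15.1 ± 2.69 in DP to 35.7 ± 9.33 in N (log2 FC from PP to N 1.91 ± 0.37 (SE, adjusted p = 0.00144)), a call that was lost with total counts.

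Nav2, a neuron navigator protein that binds microtubules, had 1.3, 1.46 and 0 CPM in PP, 0.906, 0.493 and 2.61 CPM in DP and 15.1, 9.66 and 7.84 CPM in N. It was at 0 in PP 3 and N was above every other library, with a log2 FC of 2.96 ± 0.53 (SE, adjusted p = 0.00105) from DP to N. Apbb2, an adaptor that binds the amyloid precursor protein, gave the second longest span (99449 bases). It had 2.9 ± 0.82 CPM in PP, 2.74 ± 0.719 in DP and 9.8 ± 3.43 in N, with a log2 FC of 1.77 ± 0.35 (SE, adjusted p = 0.00223) from DP to N that total counts did not retain.

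Kinases, phosphatases and other signalling genes contributed 39 long-span circRNAs, from 24 of 146 listed genes, of which 13 were higher and 5 lower in N than in PP among 38 tested (median log2 FC 0.74), against 13.6% and 14.4% of all circRNAs tested. With total counts 1 was higher and 1 lower at a median of 0.47, and without PP 3 and N 1 23 were higher and 6 lower at a median of 1.14.

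Of the circRNAs that fell from DP to N, the largest change was in Etl4, a gene of notochord and disc development. It had 11.4, 16.2 and 6.04 CPM in PP, 5.55, 6.04 and 9.07 CPM in DP and 0, 0 and 0 CPM in N for the circle of exons 4 to 6. It was not counted in any N library, while PP and DP overlapped. Against the floor of 3 counts per library it was at least 9.53-fold lower in N than in DP and at least 15.5-fold lower than in PP (adjusted p = 1.44e-05). Its second long-span circRNA, of exons 5 to 9, had a mean of 22.1 ± 11 CPM in PP, 13 ± 1.97 in DP and a single read in N.

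Gli3, the transcription factor that mediates Hedgehog signals, had 20.3, 22 and 10.2 CPM in PP, 9.06, 7.28 and 8.57 CPM in DP and 2.22, 0.116 and 0.817 CPM in N. All DP libraries lay below PP and all N libraries below DP. The fall from DP to N had a log2 FC of -3.49 ± 0.59 (SE, adjusted p = 0.000745), while that from PP to DP, -1.10 ± 0.42 (SE, adjusted p = 0.287), did not pass the test. Prdm16, a zinc-finger regulator of radial glia, had 14.3, 13.6 and 20 CPM in PP, 5.78, 6.66 and 8.94 CPM in DP and 2.22, 0.582 and 0.653 CPM in N. The order was the same, with no overlap between cell types, and the log2 FC was -1.14 ± 0.35 (SE, adjusted p = 0.137) from PP to DP and -2.98 ± 0.46 (SE, adjusted p = 0.000343) from DP to N. Dach1, a nuclear co-regulator of eye and limb development, had 6.46 ± 3.58 CPM in PP, 5.09 ± 1.33 in DP and 1.17 ± 0.411 in N, with a log2 FC of -2.20 ± 0.50 (SE, adjusted p = 0.0057) from DP to N.

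Qk encodes Quaking, an RNA-binding protein known to promote circRNA formation in other cells. Its long-span circRNA had 38.4, 37.4 and 16.7 CPM in PP, 15.4, 19.7 and 13.9 CPM in DP and 1.33, 4.89 and 3.76 CPM in N. PP 3 was the lowest of PP and lay among the DP libraries, and N was below all of them. The log2 FC was -2.16 ± 0.43 (SE, adjusted p = 0.00217) from DP to N and -3.09 ± 0.44 (SE, adjusted p = 0.000109) from PP to N. Dock1, an activator of Rac, had 5.71, 7.44 and 4.18 CPM in PP, 4.76, 3.45 and 3.6 CPM in DP and 0, 0.233 and 0.49 CPM in N. PP and DP overlapped and at most 3 reads were counted in an N library, with a log2 FC of -3.66 ± 0.52 (SE, adjusted p = 0.00021) from DP to N. Magi1 had 13, 14.6 and 7.44 CPM in PP, 16.4, 19.7 and 17.3 CPM in DP and 3.55, 3.37 and 3.59 CPM in N. It was highest in DP without a call from PP to DP and fell from DP to N by a log2 FC of -2.34 ± 0.32 (SE, adjusted p = 0.000165).

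In genes of cell division, centrosome and DNA repair no long-span circRNA was higher in N than in PP by edgeR or DESeq2, nor at an unadjusted p under 0.05, at which 17 were lower. The highest log2 FC was 0.90, that of Kif26b. Of 28 tested, from 21 of 135 listed genes with 31 circRNAs, 14 were lower in N than in PP and 9 lower in N than in DP, and the median log2 FC from PP to N was -1.32. Of all circRNAs tested 14.4% and 9.69% were lower in these comparisons. With total counts 12 were lower and 0 higher, and without PP 3 and N 1 16 were lower and 0 higher. Mms22l, which repairs stalled replication forks but was not on that list, had 11.4, 13.1 and 6.97 CPM in PP, 6.8, 7.89 and 5.96 CPM in DP and 1.33, 1.75 and 1.31 CPM in N. Levels in N were below all others in each library, with a log2 FC of -2.18 ± 0.36 (SE, adjusted p = 0.00066) from DP to N. Pola1, the catalytic subunit of DNA polymerase alpha, was at 5.09 ± 0.99 CPM in PP, 4.44 ± 0.851 in DP and 1.2 ± 0.345 in N (log2 FC from DP to N -1.94 ± 0.38 (SE, adjusted p = 0.00216)).

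Diap3, a formin that organizes actin in dividing cells, had the longest span of all at 99788 bases, with 7 exons and 1000 counted bases. This circle had 2.6, 4.53 and 13 CPM in PP, 3.17, 4.07 and 3.11 CPM in DP and 0, 0.582 and 0.817 CPM in N. PP 3 was far above PP 1 and PP 2, which lay on both sides of the DP values, and N was below every progenitor library. The log2 FC was -2.54 ± 0.65 (SE, adjusted p = 0.0125) from DP to N, lost without N 2, and -3.36 ± 0.66 (SE, adjusted p = 0.00142) from PP to N. The other 3 long-span circRNAs of Diap3 showed the same high value in PP 3 and log2 FCs from PP to N of -3.47 to -3.34. They share exons with each other. The 3 circRNAs of Cdc14a, a phosphatase of the cell cycle, fell from PP to N by log2 FCs of -2.57 to -2.26.

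**Figure D4:**
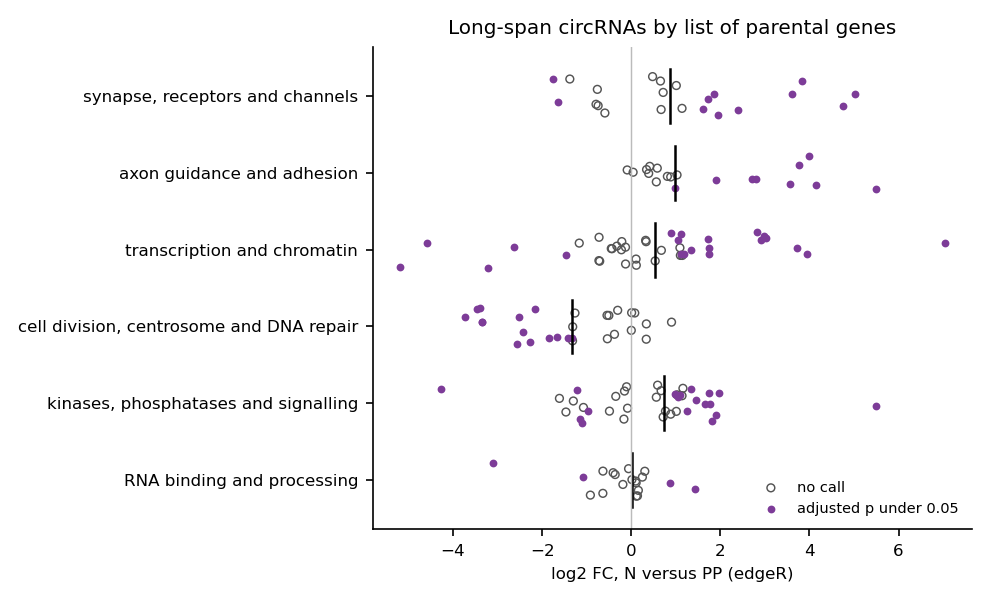
Log2 FC from PP to N (x axis, edgeR) of long-span circRNAs in 6 lists of parental genes, with 1 point per tested circRNA, filled where the adjusted p was under 0.05, and a black line at the median of each list. The medians lie at 0.99 for axon guidance and adhesion, 0.86 for synapse, receptors and channels and -1.32 for cell division, centrosome and DNA repair, and a gene can be on more than 1 list.

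RNA-binding genes gave 19 long-span circRNAs, from 13 of 114 listed genes. Of these, 2 were higher and 2 lower in N than in PP, against 13.6% and 14.4% of all circRNAs tested, with a median log2 FC of 0.01. With total counts 0 were higher, also at an unadjusted p under 0.05, and 1 lower, DESeq2 called 2 higher and 1 lower, and without PP 3 and N 1 4 were higher and 3 lower. Qk and Pphln1 fell, whereas Celf2, a splicing regulator, and Khdrbs3, of the same protein family as Quaking, rose. The Celf2 circle had 5.71, 6.31 and 8.37 CPM in PP, 9.85, 5.43 and 8.7 CPM in DP and 12.4, 20.4 and 20.1 CPM in N. N was above PP and DP in each library, with a log2 FC of 1.42 ± 0.34 (SE, adjusted p = 0.00586) from PP to N, lost with total counts. Khdrbs3 changed by 0.86 ± 0.29 (SE, adjusted p = 0.0366), a call that most alternatives lost.

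The most abundant long-span circRNAs per length were those of Nfib (mean over the cell types 65.7 RPKM), C530008M17Rik (49.9), Sox5 (48.7), Enah (42.6) and Nfia (41.7). Nfib and Nfia encode nuclear factor I transcription factors of cortical development. Nfib had 17.4, 19.6 and 12.1 CPM in PP, 22.4, 19.9 and 21.5 CPM in DP and 15.1, 47.9 and 41.3 CPM in N. N 1 was below every DP library while N 2 and N 3 were the highest of all, and the log2 FC from PP to N, 1.09 ± 0.39 (SE, adjusted p = 0.0501), did not pass the threshold. Nfia had 16.4, 18 and 12.1 CPM in PP, 22.7, 18 and 20.4 CPM in DP and 33.2, 27.9 and 26.8 CPM in N. N was above DP and PP in each library with a log2 FC of 0.90 ± 0.30 (SE, adjusted p = 0.0354) from PP to N, a call lost in most alternatives. Enah, a regulator of actin at growing cell edges, had 18.2, 14.2 and 36.3 CPM in PP, 24.8, 23.2 and 26.2 CPM in DP and 90.4, 25 and 37.7 CPM in N. The cell types overlapped, N 1 was the highest library and PP 3 the highest of PP, and no comparison was called.

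No long-span circRNA of Strn3 or Atp9b, which gave 4 each, was called in any comparison. Those of Strn3, a regulatory subunit of protein phosphatase 2A, had log2 FCs of -0.06 to 0.02 from PP to N and those of Atp9b, a phospholipid transporter, -0.26 to 0.01. The libraries of PP and N overlapped in each of them. The long circle of Foxp1, a forkhead factor, was also without a call, at 2.14 ± 0.767 CPM in PP, 1.25 ± 0.57 in DP and 1.47 ± 1.03 in N.

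Dgki, a diacylglycerol kinase, gave 3 long-span circRNAs, of which that of the primer list and the only one that holds the reverse primer are described. The circle of exons 19 to 27, which spans 99350 bases, had 1.3, 2.1 and 5.58 CPM in PP, 1.81, 1.23 and 1.37 CPM in DP and 7.98, 5.35 and 4.9 CPM in N. N was above DP in every library, but PP 3 lay within the range of N. The log2 FC was 1.97 ± 0.43 (SE, adjusted p = 0.00469) from DP to N and 1.14 ± 0.45 (SE, adjusted p = 0.0765) from PP to N, so only the first was called. The circle of exons 6 to 20 had 4.67, 3.07 and 6.51 CPM in PP, 1.47, 2.1 and 3.23 CPM in DP and 13.3, 8.14 and 6.86 CPM in N. Its lowest level was also in DP, and the log2 FC from DP to N was 2.0 ± 0.40 (SE, adjusted p = 0.00225). Both calls were lost with total counts.

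Of the other circRNAs with primers, Ehbp1, an endocytic adaptor, had a log2 FC of 1.55 ± 0.44 (SE, adjusted p = 0.0218) from DP to N and Tusc3, a subunit of the oligosaccharyltransferase, of 1.05 ± 0.34 (SE, adjusted p = 0.0448). Each call was lost without any 1 of several libraries and with total counts. Rmst had 3.38, 6.31 and 27.9 CPM in PP, 18.5, 24.8 and 18.6 CPM in DP and 7.98, 5.47 and 7.68 CPM in N. PP 3 exceeded all DP libraries while PP 1 and PP 2 lay below them, and no comparison was called. Lsamp, an adhesion protein of neurons, and Ust, a sulfotransferase, had too few reads for the test, with at most 1.86 and 1.61 CPM in any library.

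Because exons are shared between entries, the calls were also counted where no exon base was shared. Among the 55 tested long-span circRNAs that share none, 14 were higher (25.5%) and 8 lower (14.5%) in N than in PP. With only the most abundant long-span circRNA of each gene, 56 of 247 were higher (22.7%) and 42 lower (17%). These shares were near those of all 332. Over all circRNAs tested 13.6% were higher and 14.4% lower, so the share lower without a shared base was near that of all. Neither selection was made among the other circRNAs. Long-span circRNAs without a shared base had a median of 3.83 RPKM and those with every base shared 9.20 RPKM.

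Other circRNAs of the same gene that have no exon in common with the long-span one give a second readout of the locus. There were 85 genes with both. In 17 of them the long-span circRNA was higher in N than in PP, and in 16 of these the median of the others was above 0 as well, with at least 1 called higher in 12. Trappc9, with -0.37, was the exception. In 16 genes the long-span circRNA was lower, and in all 16 the median of the others was below 0, with at least 1 called lower in 12. None of the others in either group of genes was called in the opposite direction. Of all circRNAs tested 13.6% were higher and 14.4% lower. In the remaining genes the long-span circRNA was not called. There the median of the others had the same sign in some, as in Nfib (1.09 and 0.55), and the opposite sign in others, as in Ehbp1 (1.07 and -0.73). Magi1 had 5 others, all called lower, and Agap1, named outside the rule, had 4, all called higher. In Dcc the 3 others had log2 FCs of 3.33 to 4.42, and in Gli3 the 3 others of -4.08 to -3.66.

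Finally, the shares of changed circRNAs were set against span and gene length. In N versus PP, 23.7% of 207 circRNAs with a span of 30 to 50 kb were higher and 13.0% lower. At 50 to 70 kb the shares were 21.5% and 21.5% of 79, and at 70 to 100 kb 26.1% and 23.9% of 46. Below 30 kb, in 5 bins with the same window of counted length, 11.4% to 14.4% were higher and 12.2% to 14.6% lower. Span moved together with gene length, whose median rose from 163679 bases at 30 to 50 kb to 340321 bases at 70 to 100 kb.

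**Figure D5:**
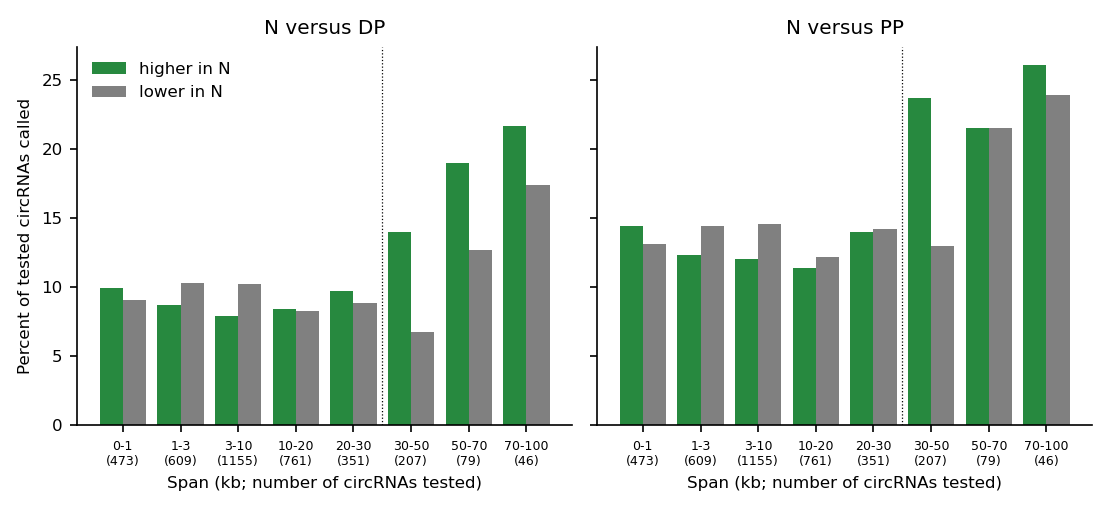
Percent of tested circRNAs called higher (green) or lower (grey) in N versus DP and in N versus PP (y axis) by genomic span in kb (x axis, with the number tested in parentheses), where the dotted line marks 30 kb. In N versus PP the share called higher is 11.4% to 14.4% in the bins below 30 kb and 21.5% to 26.1% above, and the upper bins also hold genes of greater length.

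Long-span circRNAs in genes of at least 100 kb were higher in N than in PP in 25.3% of 293 and lower in 17.4%, whereas in genes under 100 kb both shares were 10.3% of 39. Other circRNAs with a counted length in the same window were higher in 18.3% of 1291 and lower in 15.2% in genes of at least 100 kb, and higher in 8.63% of 2039 and lower in 12.8% in shorter genes. The other circRNAs of the same 278 parental genes were higher in 19.1% of 503 and lower in 13.7%. Which of span and gene length the shares follow was not tested.

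At the edges of the selection, the long-span circRNAs nearest to the span limit were those of Ipo11 (30003 bases) and Pigu (30058), and those just outside were of Nrxn3 (29993) and Mpped2 (29971). By counted length the nearest inside were Unc5d (250) and Shq1 (251) at the lower limit and Rmst (1992) and Atp2c1 (1956) at the upper, while Mllt10 (248), Igsf21 (243), Cabin1 (2008) and Ccdc57 (2012) lay just outside. Ipo11, a nuclear import receptor, had 1.3, 2.75 and 0.93 CPM in PP, 1.59, 1.97 and 1.37 CPM in DP and 0.886, 0.698 and 0.49 CPM in N for its circle at the limit, and Pigu, of the GPI anchor pathway, had 2.34, 2.26 and 0 CPM in PP, 1.59, 2.84 and 0.745 CPM in DP and 2.22, 1.28 and 0.817 CPM in N. Neither was called in any comparison.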

How the data were processed

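RNase R-treated RNA was sequenced in 9 libraries, 3 each of PP, DP and N. The authors mapped strand-specific reads to mm9 by gsnap, with Ensembl transcripts as annotation, predicted circRNAs from unaligned reads with find_circ, kept exons and introns above an RPKM threshold, and counted reads on them with featureCounts (Subread 1.6.0, bcl2fastq 1.8.4 per the labels). The deposited table holds raw counts as whole numbers, 1 per circRNA in each library. How reads on several entries were counted is not given in the sources used here. No per-sample column was left unused.

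CPM and RPKM were computed here with TMM library sizes. Counts were tested with the quasi-likelihood test of edgeR 4.0.16 (R 4.3.3, filterByExpr, robust, Benjamini-Hochberg adjustment over 4406 circRNAs, threshold 0.05) in one model of 9 libraries without a block, and the steps were tested on simulated data. The biological coefficient of variation was 0.296. Libraries may vary for technical reasons, and floors cover counting error only. Exons came from GENCODE vM1, not the annotation release of the authors. Python 3.11.15, pandas 2.3.3, scipy 1.17.1 and matplotlib 3.10.9 were used.

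CircRNAs were named by rule: up to 5 per comparison and direction with the largest log2 FC among called, well counted ones that did not overlap, 5 by span, 5 by RPKM, those with primers, genes with at least 4, those nearest the limits, and 3 per gene list by adjusted p. Plxna2, Clvs1, Grik2, Fzd3, Pphln1, Asxl3, Agap1, Trappc9, the further circles of Unc5d, Etl4 and Cdc14a, and the 6 with inverted repeats were named after their values were seen. Some circRNAs that the rule names are not reported here. The selection of circRNAs and the lists were made with earlier results of these data known. Alternatives were DESeq2 1.42.0, RLE or total counts, other filters, a replicate block, only the 2 cell types compared, the very abundant or duplicate entries left out, and libraries left out.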

Additional observations from a re-analysis of the deposited data

How the results depend on the processing

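No call of a named circRNA changed direction in any alternative run. Without PP 3 and N 1, 51 long-span circRNAs were higher and 19 lower from PP to DP (90 up and 35 down by FC), 104 were higher and 58 lower from DP to N, and 118 were higher from PP to N. With at least 10 counts in every library only 114 could be tested: 1 was higher from PP to DP (13 up and 17 down by FC), 14 higher and 0 lower from DP to N (35 up and 7 down by FC), and 27 higher and 6 lower from PP to N. With total counts 5 were higher from PP to DP, 14 from DP to N (63 up and 121 down by FC) and 31 from PP to N. With only the 2 cell types in the fit 30 were lower from PP to N. Except where fewer circRNAs or libraries entered the fit, the cause was not tested. With 1 library left out at a time, 8 to 19 were higher and 0 to 3 lower from PP to DP (50 to 88 up and 34 to 88 down by FC), 33 to 84 higher and 22 to 50 lower from DP to N (108 to 120 up and 74 to 86 down by FC), and 61 to 106 higher and 35 to 59 lower from PP to N. Without PP 3 alone the counts were 19 and 3 from PP to DP and 84 and 50 from DP to N, without DP 2 33 were higher from DP to N, without N 3 35 were lower from PP to N, and without N 1 1 was lower from PP to DP. A replicate block gave 10 higher and 0 lower from PP to DP, 45 and 28 from DP to N, and 70 and 48 from PP to N. Deviations of libraries with the same number correlated between -0.24 and 0.28, and 0 of 9 libraries correlated best with their own number in both other cell types. The labels do not say whether equal numbers share a litter or sort, and with 3 libraries per cell type these correlations cannot settle it. Of 92 calls of named circRNAs 57 were made in every alternative that tested them. All 92 were made with the very abundant entries left out. Depth limits the 43 circRNAs that were not tested and those near the floor of 0.340 to 1.39 CPM.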
